A study of Mus musculus with 6 samples.

Results

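The genes of the cytosolic ribosomal proteins were described in 6 RNA-seq libraries of murine 10T1/2 cells, a mesenchymal fibroblast line. Members were the rows of the count table with an Rpl or Rps symbol of the standard numbered form, together with Rpsa, Rplp0, Rplp1 and Rplp2, and without pseudogene symbols ending in -ps or the S6 kinases. There were 89 such rows among 57180, 53 of the large and 36 of the small subunit. All cells had been stimulated with TGF-β at 5 ng/mL to give a model of cancer-associated fibroblasts, and no library came from unstimulated cells. In 3 libraries the cells had received photodynamic therapy (PDT), in which a dye excited by light yields reactive oxygen species. The dye was chlorin e6, carried in extracellular vesicles directed at midkine (MDK) and named Ce6@D4-EV, and the cells were then lit. In the other 3 the cells had received PBS. Vesicles, dye and light were given together, so their separate effects cannot be told apart, and a single cell line stands for fibroblasts here.

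A cytosolic ribosome joins a small subunit, which holds the mRNA and reads its codons, to a large subunit, which forms peptide bonds and lets the new chain out through an exit tunnel. Most ribosomal proteins are present in a ribosome in a single copy, and the subunits are built in the nucleolus with the help of many assembly factors. Most ribosomal protein mRNAs in mammals begin with a C followed by a run of pyrimidines, the terminal oligopyrimidine (TOP) motif, through which mTORC1 and the RNA-binding protein LARP1 control their translation and stability. Unassembled Rpl5 and Rpl11 bind the p53 ubiquitin ligase Mdm2, which links ribosome assembly to p53.

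Libraries held 83195529 to 99527847 counts, and levels are given as counts per 1e6 counts (CPM). Fibroblast markers were abundant, with a sum of 22448 to 22816 CPM in PDT and 34244 to 35965 CPM in PBS over 12 markers, although Thy1 was near 0. Leukocyte markers summed to 1.71 to 1.87 in PDT and 0.974 to 1.03 in PBS, with 3 of 6 at 0 in every library (Ptprc, Adgre1 and Cd3e). Epithelial markers summed to 0.429 to 0.582 in PDT and 0.589 to 1.29 in PBS with Epcam at 0, and endothelial markers to at most 0.123 with Kdr and Tie1 at 0. PDT replicate 3 stood nearer to the PBS libraries than the other PDT libraries did in the ribosomal protein genes, and the results are therefore also given without it. Fewer cells of a type and less RNA per cell cannot be told apart in such bulk libraries. All other levels are normalised to TMM-scaled library sizes, listed from replicate 1 to replicate 3, and a log2 fold change is PDT over PBS.

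Many cytosolic ribosomal protein transcripts were slightly higher in PDT than in PBS cells, and none was called lower in the main fit. Of the 89 genes 84 passed the filter on low counts, and 33 of them rose (edgeR's quasi-likelihood test, adjusted p below 0.05), which is 39.3% of those tested, against 18.7% of all 17635 genes tested. With all 6 libraries and without length and GC offsets, no member was lower at an adjusted p below 0.05 in edgeR, DESeq2 or limma-voom. Of all tested genes 17.5% were lower in edgeR, and 1 member was lower at an unadjusted p below 0.05. With such offsets, described below, 9 members were lower in edgeR. In either direction 36.1% of all genes were called. The rise was small. The median log2 fold change of the tested members was 0.16, against 0.0078 for all tested genes, with quartiles of 0.066 and 0.20. Positive values were found for 78 members and negative values for 6. In 33 members every PDT library lay above every PBS library, as in 25.6% of all genes, and in 0 members every PDT library lay below, as in 23.4% of all genes. Of the 33 that rose, 31 had groups that did not overlap, and the exceptions were Rpl24 and Rpl35a.

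The large subunit had 23 of 50 tested members higher (46%) with a median log2 fold change of 0.17. The small subunit had 10 of 34 higher (29.4%) with a median of 0.12. The difference between the subunits was not tested. The small subunit took 39.1%, 38.7% and 39.1% of the members' counts in the PDT libraries, against 38.9%, 39.5% and 39.1% in the PBS libraries, so the balance between subunits overlapped between the groups.

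The count depended on transcript length and GC content. Member transcripts were short, with a median of 896.5 nt (longest annotated transcript), against 2691 nt for all tested genes, and had a median GC content of 51.6%, against 49.6%. With offsets that remove each library's trend with length and GC, 13 members were higher and 9 lower, with a median of 0.014, where 17.8% of all genes were higher and 15.7% lower. Of the 33 calls 25 were lost and 3 of the 33 changed sign. The 8 that held were those of Rpl7l1, Rpl15, Rpl26, Rpl31, Rpl32l, Rpl36, Rpl39 and Rpl41. Rpl5, Rpl22l1, Rps15a, Rps20 and Rps27l were called higher with offsets but not in the same fit without them. The offsets took the longest annotated transcript, of 2045 nt for Rpl5, 5179 nt for Rps15a and 3706 nt for Rps20. For Rpl22l1 and Rps27l it had 552 and 575 nt. Which transcripts these cells use was not checked, so these calls may depend on the transcript taken. The members called lower with offsets included Rpl3, Rpl7a, Rpl10, Rpl14, Rpl19, Rplp0, Rps19 and Rps27. Such offsets also remove any effect of the treatment that follows length or GC. With scaling by library size only, 56 members were higher and 0 lower, and 24.3% of all genes were higher and 14.3% lower, which is 4290 against 2517 genes in place of 3294 against 3078.

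**Figure D1:**
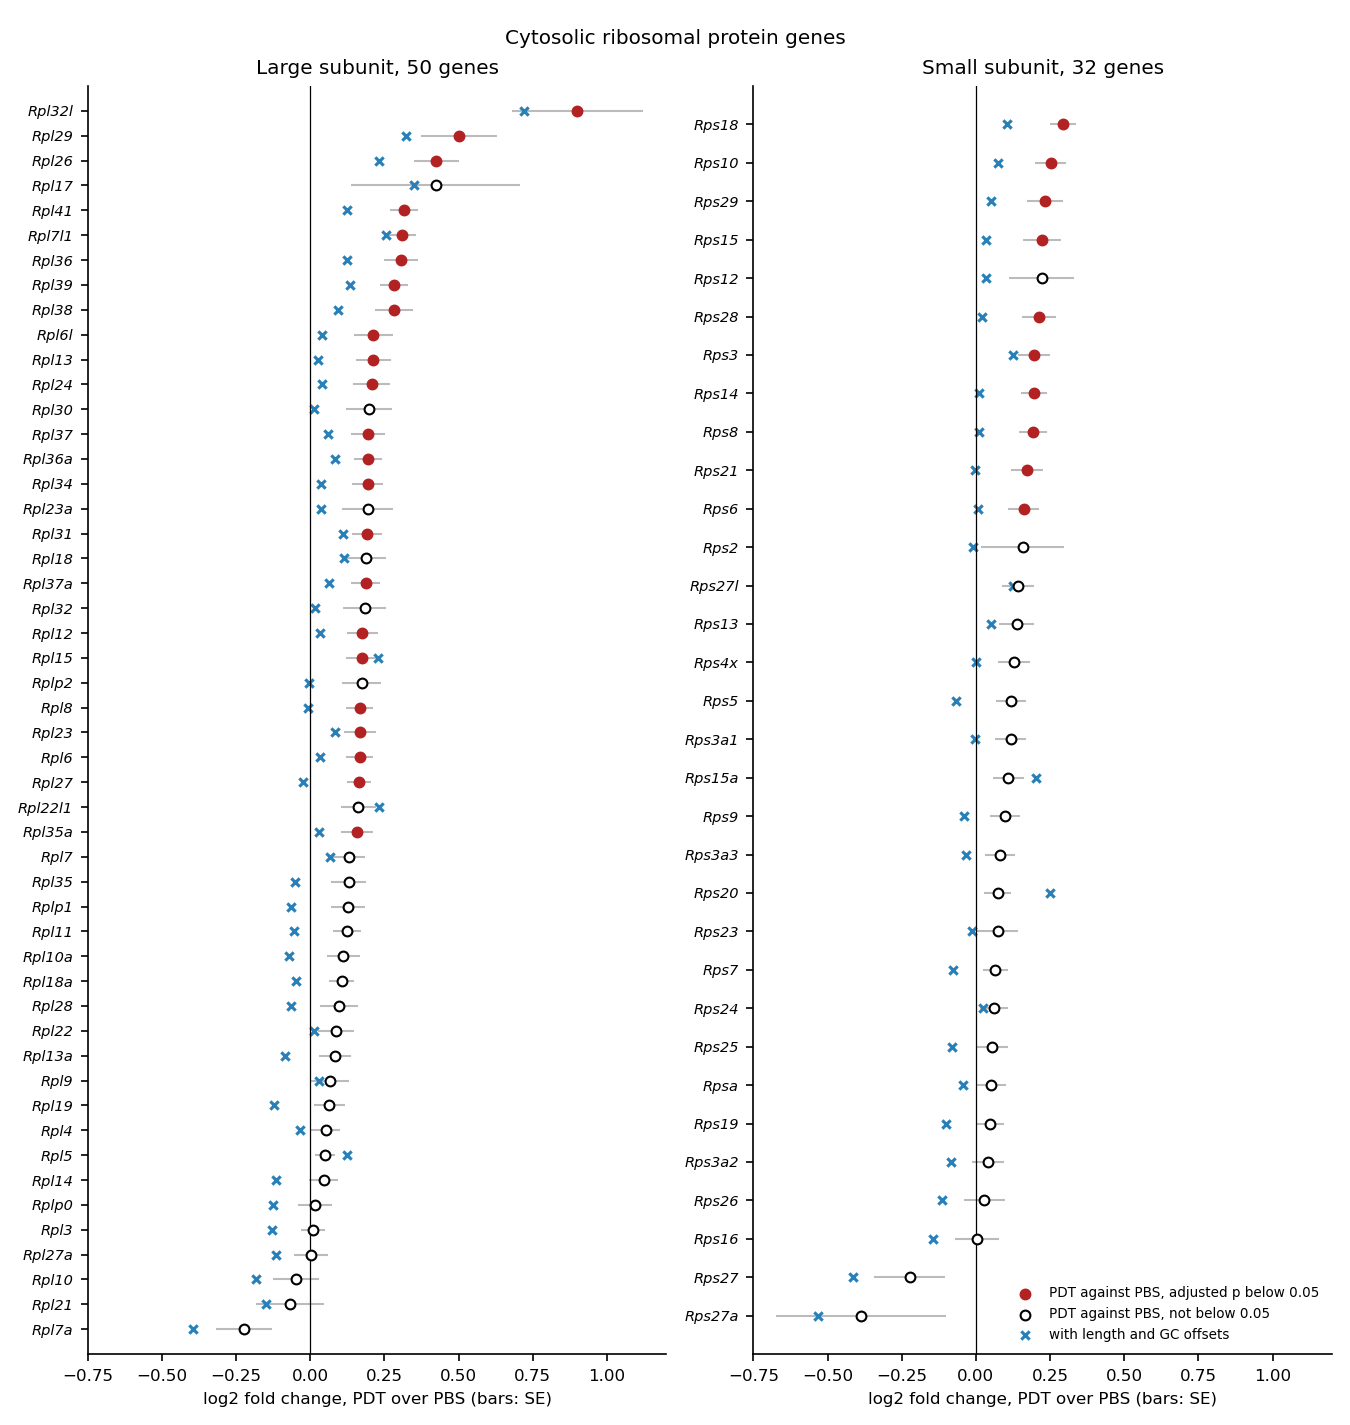
Log2 fold change (PDT over PBS, x axis) of 82 tested ribosomal protein genes, large subunit left and small subunit right, with bars for the SE. Filled red points passed an adjusted p of 0.05, open points did not, and blue crosses give the value with length and GC offsets; 33 points are red, all right of 0, and most crosses lie left of their points.

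The starts of these genes were read from RefSeq promoter windows of GRCm38.p6, which hold 250 bases before and 50 after the annotated start, and which are of an earlier build than the counts. Of the 89 members 64 were matched by symbol. A C at the annotated start with at least 4 further pyrimidines, as in a TOP motif, was found in 14 of the 64 (21.9%), against 813 of 27025 genes (3.01%). The motif CCGGAAG of ETS family factors, on either strand, was found in 26 of 64 (40.6%), against 9.93% of all genes. AAGATGG, the YY1 motif, was found in 15.6% of members and 7.28% of genes, and TATAAA in 12.5% and 15.7%. Of the members with the start run 8 of 14 rose (median log2 fold change 0.17), and of the tested members without it 18 of 47 rose (0.14). With CCGGAAG 13 of 25 rose (median 0.17) and without it 13 of 36 (0.12). With AAGATGG 2 of 10 rose (0.074) and without it 24 of 51 (0.16), and with TATAAA 4 of 8 rose (0.18) and without it 22 of 53 (0.14). None of these differences was tested. The annotated start was not checked against start sites used in these cells, and a match of letters is not a site in use. The 4 members with a start run and the lowest adjusted p are shown first and the 4 with the highest adjusted p after them, from 10 bases before to 20 bases from the start, with the pyrimidine run in capitals:
Rps18, chr17:33955646-33955675, minus strand: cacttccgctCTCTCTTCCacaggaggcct
Rps10, chr17:27635225-27635254, minus strand: gcgcacgcccCTTCCTTTCCagcctccgcc
Rpl38, chr11:114668570-114668599, plus strand: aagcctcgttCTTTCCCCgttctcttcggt
Rpl32l, chr10:20208429-20208458, plus strand: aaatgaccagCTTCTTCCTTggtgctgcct
Rps15a, chr7:118116128-118116157, minus strand: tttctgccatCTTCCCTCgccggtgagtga
Rps27, chr3:90213629-90213658, minus strand: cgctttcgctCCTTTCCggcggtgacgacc
Rpl28, chr7:4792955-4792984, plus strand: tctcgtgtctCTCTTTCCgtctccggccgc
Rpl14, chr9:120571507-120571536, plus strand: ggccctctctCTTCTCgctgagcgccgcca
The first 4 of these rose and the last 4 did not pass the test, which follows from the pick by adjusted p. Runs of 6 to 10 pyrimidines occur among them.

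The CCGGAAG motif is shown in 30-base windows of the 3 large-subunit members that hold it and had the lowest adjusted p, with the motif or its reverse complement in capitals:
Rpl41, chr10:128549206-128549235, minus strand: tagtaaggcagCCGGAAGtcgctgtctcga
Rpl39, chrX:37085181-37085210, minus strand: ctaatcgcgttCTTCCGGtcccggcctttc
Rpl26, chr11:68901559-68901588, plus strand: aacttacagaaCCGGAAGtcgcgtgtagtt
None of these 3 has the pyrimidine run at its annotated start, and that all 3 rose follows from the pick by adjusted p. Rps18, Rps10 and Rpl38 also hold CCGGAAG and rose, and their start runs have 9, 10 and 8 pyrimidines.

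Among large-subunit members Rpl41, Rpl39, Rpl36 and Rpl38 rose. Rpl41, the shortest protein of the ribosome, had 1119.9, 1149 and 1032 CPM in the PDT libraries, against 857, 869 and 925 CPM in the PBS libraries. The PDT libraries did not overlap with the PBS libraries, and the log2 fold change was 0.32 ± 0.049 (SE), adjusted p = 0.000847. Rpl39, which lines the end of the exit tunnel, had 316, 335 and 295 CPM in PDT cells and 254, 265 and 259.9 CPM in PBS cells. The groups did not overlap here either, and it rose by 0.28 ± 0.048 (SE), adjusted p = 0.00147. Rpl36 had 152, 159 and 136 CPM in the PDT libraries, against 116, 122 and 123 CPM in the PBS libraries. It rose by 0.31 ± 0.057 (SE), adjusted p = 0.00243, with PDT replicate 3 the lowest of the PDT libraries and still above every PBS library. Rpl38, which in mice is needed for the translation of some Hox mRNAs, had 107, 109.8 and 94.6 CPM in PDT cells and 87.8, 79.5 and 88.8 CPM in PBS cells. It rose by 0.28 ± 0.063 (SE), adjusted p = 0.00668, a call lost with offsets (0.092 with adjusted p = 0.223). Rpl41, Rpl39, Rpl36 and the paralogue Rpl7l1 were the only 4 members called under each of the alternatives, offsets included.

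Rpl29 and Rpl26 had the highest log2 fold changes of the large subunit after Rpl32l. Rpl29 had 3.99, 3.59 and 3.76 CPM in the PDT libraries, against 2.51, 2.48 and 3.02 CPM in the PBS libraries, and rose by 0.50 ± 0.13 (SE), adjusted p = 0.0126. Its call was lost without PDT replicate 1, with an adjusted p of 0.056, and with offsets (0.32 with adjusted p = 0.0863). Rpl26, a protein at the tunnel exit that in human cells also binds the mRNA of p53, had 29.1, 31.3 and 26.2 CPM in PDT cells and 21.5, 20.1 and 22.9 CPM in PBS cells. It rose by 0.43 ± 0.077 (SE), adjusted p = 0.00206. Their own rows hold little of the signal that matches them, 1.0% for Rpl29 and 6.13% for Rpl26, the remainder being in rows of near-identical copies. With the copy rows added Rpl29 still rose (0.32 ± 0.050 (SE), adjusted p = 0.000812), while Rpl26 did not pass the test (0.19 ± 0.068 (SE), adjusted p = 0.0541). The PDT libraries then held 451, 478 and 392 CPM of Rpl26 and copies, against 366, 387 and 407 CPM in the PBS libraries.

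The proteins that line or surround the exit tunnel had 3 of 8 members higher, namely Rpl26, Rpl39 and Rpl31. That is 37.5%, near the 39.3% of all tested members, against 18.7% of all tested genes. Rpl4, which reaches into the tunnel wall, had 1292, 1317 and 1219 CPM in the PDT libraries, against 1152, 1239 and 1303 CPM in the PBS libraries. It did not pass the test (0.051 ± 0.050 (SE), adjusted p = 0.469), and PBS replicate 3 lay above PDT replicate 3. The stalk, which recruits translation factors to the large subunit, had 1 of 4 members higher (25%), its base protein Rpl12. Rpl12 rose by 0.18 ± 0.054 (SE), adjusted p = 0.029, a call lost with offsets (0.033 with adjusted p = 0.547). Rplp0, the scaffold of the stalk, had 1856, 1907 and 1629.5 CPM in PDT cells and 1718, 1769 and 1841 CPM in PBS cells. The groups overlapped, with PDT replicate 3 below every PBS library, and the difference did not pass the test (0.017 ± 0.058 (SE), adjusted p = 0.848). Rplp1 and Rplp2, the acidic proteins of the stalk, had log2 fold changes of 0.13 ± 0.058 (SE), adjusted p = 0.118 and 0.17 ± 0.065 (SE), adjusted p = 0.063. Each of Rplp0, Rplp1 and Rplp2 had a negative value with length and GC offsets, and that of Rplp0 passed the test there (-0.13 with adjusted p = 0.0382).

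Of Rpl5, Rpl11 and Rpl23, which bind Mdm2, Rpl23 alone passed the test, and with offsets Rpl5 alone did. Rpl5, which carries the 5S rRNA with Rpl11, had 759, 744 and 729.7 CPM in the PDT libraries, against 713, 716 and 731 CPM in the PBS libraries. Its log2 fold change was 0.048 ± 0.034 (SE), adjusted p = 0.302, and the groups overlapped at PBS replicate 3. With offsets Rpl5 was higher in PDT (0.12 with adjusted p = 0.014), with its longest annotated transcript of 2045 nt taken as its length. Rpl11 had 409, 411 and 376 CPM in PDT cells and 351, 367 and 382 CPM in PBS cells, with 0.12 ± 0.047 (SE), adjusted p = 0.0693. Rpl23 rose by 0.17 ± 0.053 (SE), adjusted p = 0.0343, a call lost without PDT replicate 1 or 2 or PBS replicate 1 or 2, and with offsets (0.083 with adjusted p = 0.118). Rpl3, close to the peptidyl transferase centre, had 748, 748 and 703 CPM in the PDT libraries, against 702, 744 and 741 CPM in the PBS libraries and a log2 fold change of 0.0084 ± 0.040 (SE), adjusted p = 0.895. With offsets it was lower in PDT (-0.13 with adjusted p = 0.00636). Rpl10, which joins late in the cytoplasm and completes the subunit, had 854, 899 and 701 CPM in PDT cells and 824, 844 and 868 CPM in PBS cells (-0.047 ± 0.078 (SE), adjusted p = 0.683). Without PDT replicate 3 its value was 0.050 in place of -0.047, and with offsets it was lower (-0.18 with adjusted p = 0.038). Rpl27a, a large-subunit protein, had a value near 0 (0.0027 ± 0.058 (SE), adjusted p = 0.977).

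In the small subunit Rps18, a protein of the subunit head, had the highest log2 fold change. It had 55.4, 55.5 and 54.6 CPM in the PDT libraries, against 43.2, 46.8 and 45.0 CPM in the PBS libraries, and rose by 0.29 ± 0.044 (SE), adjusted p = 0.000733. The 3 PDT libraries lay within about 1 CPM of each other and above each PBS library, although only 6.99% of the matching counts fell in its own row. With copies it rose by 0.26 ± 0.058 (SE), adjusted p = 0.00636. Rps10 had 448, 431 and 409.7 CPM in PDT cells and 341, 386 and 355 CPM in PBS cells, and rose by 0.25 ± 0.052 (SE), adjusted p = 0.00445. Rps14, whose loss is tied to the 5q- syndrome in humans, had 652, 610.1 and 604 CPM in the PDT libraries, against 528, 563 and 539 CPM in the PBS libraries. It rose by 0.20 ± 0.043 (SE), adjusted p = 0.0058. Rps6, the substrate of the S6 kinases, had 902, 928 and 835 CPM in PDT cells and 751, 802 and 832 CPM in PBS cells. Its groups did not overlap, and it rose by 0.16 ± 0.051 (SE), adjusted p = 0.0338, but the call was lost without PDT replicate 1 or 2 or PBS replicate 1 or 2. With offsets none of Rps18, Rps10, Rps14 and Rps6 passed the test, with adjusted p of 0.0803, 0.181, 0.872 and 0.902.

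At the mRNA channel of the small subunit 1 of 2 entry-side members rose, Rps3 (0.20 ± 0.053 (SE), adjusted p = 0.017), and 3 of 5 exit-side members rose, Rps14, Rps21 and Rps28. With offsets none of these 4 passed the test, with adjusted p of 0.05003, 0.872, 0.961 and 0.69. The shares of 50% on the entry side and 60% on the exit side rest on 2 and 5 genes. They stand against 29.4% of small-subunit members and 18.7% of all tested genes. Rpsa, an exit-side protein also known as the laminin receptor, had 1434, 1408 and 1259 CPM in the PDT libraries, against 1281, 1323 and 1357 CPM in the PBS libraries. The groups overlapped, and the log2 fold change was 0.050 ± 0.051 (SE), adjusted p = 0.49. Of the 11 members most often named in Diamond-Blackfan anaemia, a human disease of ribosomal protein loss, 4 rose: Rpl26, Rps10, Rps29 and Rpl35a. Of these, Rpl26 alone kept its call with offsets. The share of 36.4% was near the 39.3% of all tested members. Rps19, the gene most often affected in that disease, did not pass the test, at 322, 340.4 and 303 CPM in PDT cells and 299.9, 320.5 and 313 CPM in PBS cells (0.048 ± 0.048 (SE), adjusted p = 0.474). With offsets it was lower in PDT (-0.10 with adjusted p = 0.0472). Rps7, which binds Mdm2, had 509, 524 and 487 CPM in the PDT libraries, against 463, 487 and 503 CPM in the PBS libraries (0.065 ± 0.043 (SE), adjusted p = 0.275). Rps4x, a protein of the subunit body, had a log2 fold change of 0.13 ± 0.054 (SE), adjusted p = 0.0891, and Rps16, whose tail reaches the P-site tRNA, had 0.0025 ± 0.074 (SE), adjusted p = 0.984.

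The 6 members with a negative value did not pass the test, and in 3 of them the share of counts in the gene's own row, against rows of copies, varied between libraries. Non-member rows of pseudogenes, or with an Rpl, Rps or Gm symbol, were counted as copies where their annotated transcript matched a member's coding sequence. A match needed at least 90% identity over at least 70% of its length. Rows of -ps symbols were counted for the member they name, matched or not. Of the members 79 had at least 1 copy. Member rows were not taken as copies of each other, so Rps3a2, Rps3a3, Rpl6l and Rpl32l had 0 copies. How reads that match several rows were counted is not given in the sources used here. Rps27a, made as a fusion with ubiquitin, had 260.0, 157 and 148 CPM in the PDT libraries, against 138, 299.8 and 300.4 CPM in the PBS libraries. PDT replicate 1 and PBS replicates 2 and 3 were high and the other 3 libraries low, and the value was -0.39 ± 0.29 (SE), adjusted p = 0.333. Its row held 81.8, 57.6 and 57.5% of the matching counts in PDT, against 58.7, 87.3 and 86.4% in PBS. The sum over the row and its copies was 318, 273 and 258 CPM in PDT and 235, 343 and 347 CPM in PBS, so the 3 low libraries stayed the lowest.

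Rpl7a, whose introns carry snoRNAs, had 405, 537 and 459 CPM in the PDT libraries, against 576, 568 and 492 CPM in the PBS libraries in its own row. The log2 fold change was -0.22 ± 0.095 (SE), adjusted p = 0.0953, and the row held 37.3, 48.4 and 46.3% of the matching counts in PDT and 68.4, 63.8 and 56.3% in PBS. With copies added the PDT libraries held 1086, 1111 and 993 CPM, against 841, 889 and 873 CPM in the PBS libraries, and Rpl7a rose (0.29 ± 0.047 (SE), adjusted p = 0.000954). The direction thus turned with the copies, in a sum that may hold the same reads more than once. With only the pseudogene rows of -ps symbols added, Rpl7a did not pass the test (0.075 ± 0.056 (SE), adjusted p = 0.338). With offsets the row of Rpl7a was lower in PDT (-0.39 with adjusted p = 0.0093). Rps27, a zinc-finger protein of the small subunit, had 101, 84.2 and 66.4 CPM in PDT cells and 100.2, 101 and 92.7 CPM in PBS cells (-0.22 ± 0.12 (SE), adjusted p = 0.18), and 0.046 ± 0.060 (SE), adjusted p = 0.602 with copies, while with offsets its row was lower in PDT (-0.42 with adjusted p = 0.0155). Its row held 85.3, 67.4 and 62.7% of the matching counts in PDT and 92.0, 89.8 and 78.3% in PBS. Single rows were called lower when a library was left out, namely Rps27 without PDT replicate 1, Rpl7a without PDT replicate 2 and Rps27a without PBS replicate 1. Rpl21 had only 1.32% of its matching counts in its own row (-0.068 ± 0.12 (SE), adjusted p = 0.689).

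The value of Rpl17, at the tunnel exit, rested on 1 library. It had 328, 298 and 272 CPM in the PDT libraries, against 281, 108 and 281 CPM in the PBS libraries, where PBS replicate 2 alone was low, and its value was 0.42 ± 0.28 (SE), adjusted p = 0.285. In that library 20.1% of the matching counts were in its row, against 44.9% to 52.5% in the other 5. The sum over copies was 625, 665 and 584 CPM in PDT and 548, 535 and 553 CPM in PBS, and Rpl17 rose on that scale (0.20 ± 0.048 (SE), adjusted p = 0.00954). Rps2, of the mRNA entry, likewise had 5.30% in its row and 0.16 ± 0.14 (SE), adjusted p = 0.423, and rose with copies added (0.21 ± 0.050 (SE), adjusted p = 0.0079). With all copy rows added 38 members were higher and 0 lower, where 19.2% of all genes were higher. Some copy rows carry nearly equal counts, so a sum may hold the same reads more than once. Among the 55 tested members with at least 90% of the matching counts in their own row 20 rose (36.4%) and 0 fell, with a median of 0.13. Of the 29 tested members with under 90%, 13 rose (44.8%) and 0 fell, with a median of 0.17. Reads shared between the rows of 2 members, such as Rps3a1 and Rps3a2, are not seen in these shares. Of all tested genes 18.7% were higher and 17.5% lower.

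**Figure D2:**
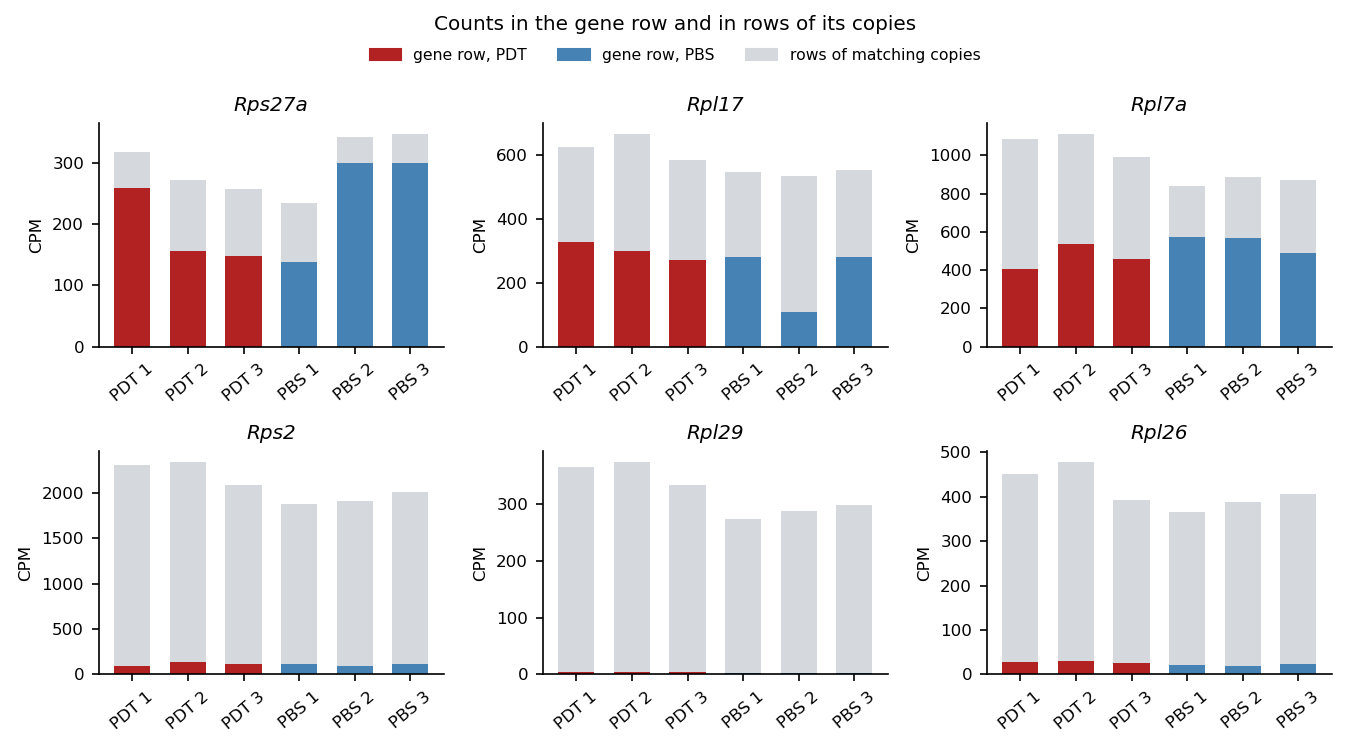
CPM (y axis) in the row of 6 ribosomal protein genes and, in grey above it, in rows of matching copies, for 3 PDT libraries (red) and 3 PBS libraries (blue). The Rps27a row is low in PDT 2, PDT 3 and PBS 1, the Rpl17 row is low in PBS 2, and the grey part is nearly all of Rps2, Rpl29 and Rpl26.

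Paralogues and like genes had 3 of 7 tested members higher, Rpl32l, Rpl7l1 and Rpl6l. That is 42.9%, near the 39.3% of all tested members, against 18.7% of all tested genes. Rpl7l1, a paralogue of Rpl7, had 169.6, 173 and 156 CPM in the PDT libraries, against 136, 133 and 133 CPM in the PBS libraries. It rose by 0.31 ± 0.045 (SE), adjusted p = 0.000631 and, with offsets, by 0.26 with adjusted p = 0.000668. Rpl7 itself did not pass the test (0.13 ± 0.055 (SE), adjusted p = 0.0922). Rpl32l, a weakly counted like gene of Rpl32, had 1.06, 1.15 and 0.904 CPM in PDT cells and 0.457, 0.624 and 0.588 CPM in PBS cells and the highest fold change of all members (0.90 ± 0.22 (SE), adjusted p = 0.0106). Rpl22l1, a paralogue of Rpl22, had 93.2, 106 and 90.9 CPM in the PDT libraries, against 84.6, 90.7 and 83.7 CPM in the PBS libraries. Its groups did not overlap, but it missed the threshold in edgeR (0.16 ± 0.060 (SE), adjusted p = 0.0609). It passed with offsets (0.23 with adjusted p = 0.0152) and in DESeq2 (adjusted p = 0.0381). Rpl22 had 0.087 ± 0.060 (SE), adjusted p = 0.301. Rps27l, which p53 induces in human cells, had 0.14 ± 0.055 (SE), adjusted p = 0.0704, and was higher in PDT with offsets (0.12 with adjusted p = 0.0353). Rps3a1 and its like genes Rps3a2 and Rps3a3 had log2 fold changes of 0.12, 0.041 and 0.081 with adjusted p of 0.11, 0.589 and 0.247. Of the 5 genes left untested, Rpl10l, Rpl39l and Rps12l1 had 0 counts in every library, which allows up to 3 counts in each, and Rpl3l had 3 counts in PBS replicate 3 alone. Rps4l had 0, 6 and 4 counts in PDT and 6, 10 and 33 counts in PBS.

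The PDT libraries differed in how far they lay from PBS. Relative to the mean of the PBS libraries, the median log2 value of the 84 tested members was 0.17 in PDT replicate 1, 0.21 in PDT replicate 2 and 0.043 in PDT replicate 3, while that of all tested genes was between 0.0014 and 0.011. Members above every PBS library numbered 71, 78 and 35 in PDT replicates 1, 2 and 3, which is 84.5%, 92.9% and 41.7% of the tested members, against 38.2%, 38.6% and 36.7% of all tested genes. PDT replicate 3 was the lowest PDT library in 78 of 84 members, and PDT replicate 2 the highest in 65. The large subunit had medians of 0.19, 0.24 and 0.059 in these libraries and the small subunit 0.13, 0.17 and 0.024, so both subunits kept the same order. The PBS libraries also differed, at -0.082, 0.0086 and 0.079 relative to the mean of the other PBS libraries. PBS replicate 1 was the lowest PBS library in 63 members and PBS replicate 3 the highest in 62.

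**Figure D3:**
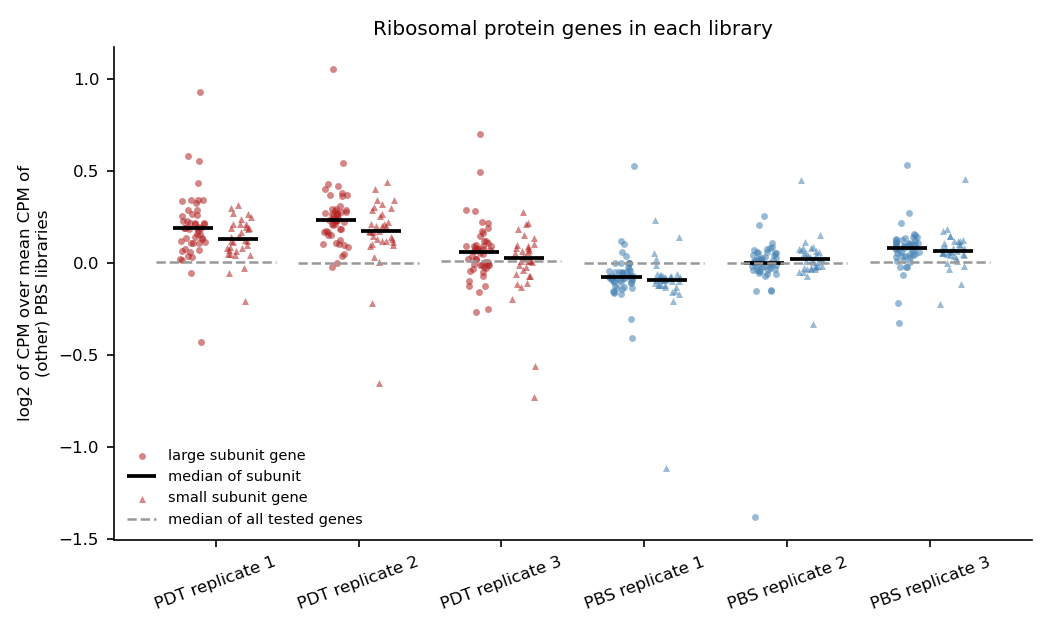
Log2 of each member's CPM over the mean CPM of the PBS libraries (for a PBS library, of the other PBS libraries; y axis) in each library, with circles for the large and triangles for the small subunit, black bars for their medians and dashed lines for the median of all tested genes. The black bars lie highest in PDT replicates 1 and 2, close to the dashed line in PDT replicate 3 and below it in PBS replicate 1.

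The number of calls followed these libraries. Without PDT replicate 1 there were 14 members higher, which is 16.5% of those tested. Without PDT replicate 2 there were 11 (12.9%) and without PDT replicate 3 there were 57 (67.1%). The shares of all genes higher in those fits were 12.8%, 13.0% and 19.2%. Without PBS replicate 1 there were 12 higher (14.1%), without PBS replicate 2 there were 21 (25%) and without PBS replicate 3 there were 34 (40.5%). Of all genes 14.3%, 14.8% and 15.2% were higher in these fits. The member share was thus near that of all genes without PDT replicate 2 or PBS replicate 1. Rpl26, Rpl32l, Rpl36, Rpl38, Rpl39, Rpl41, Rpl7l1, Rps10, Rps14 and Rps18 were called in each of these 6 fits. The median log2 fold change lay between 0.094 and 0.19 in them.

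As a share of all counts, the member rows took 4.18%, 4.28% and 3.85% in the PDT libraries, against 3.53%, 3.67% and 3.77% in the PBS libraries. The mean was 4.11% ± 0.22 in PDT and 3.66% ± 0.12 in PBS (SD, n = 3 each), and PDT replicate 3 lay closer to PBS replicate 3 than to the other PDT libraries. The large subunit took 2.51% ± 0.14 in PDT and 2.23% ± 0.070 in PBS, and the small subunit 1.60% ± 0.081 in PDT and 1.43% ± 0.053 in PBS (SD, n = 3 each). Copy rows took 0.926% ± 0.046 in PDT and 0.786% ± 0.039 in PBS (SD, n = 3 each). A share of counts depends on what else each library holds, and no test was made of it.

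**Figure D4:**
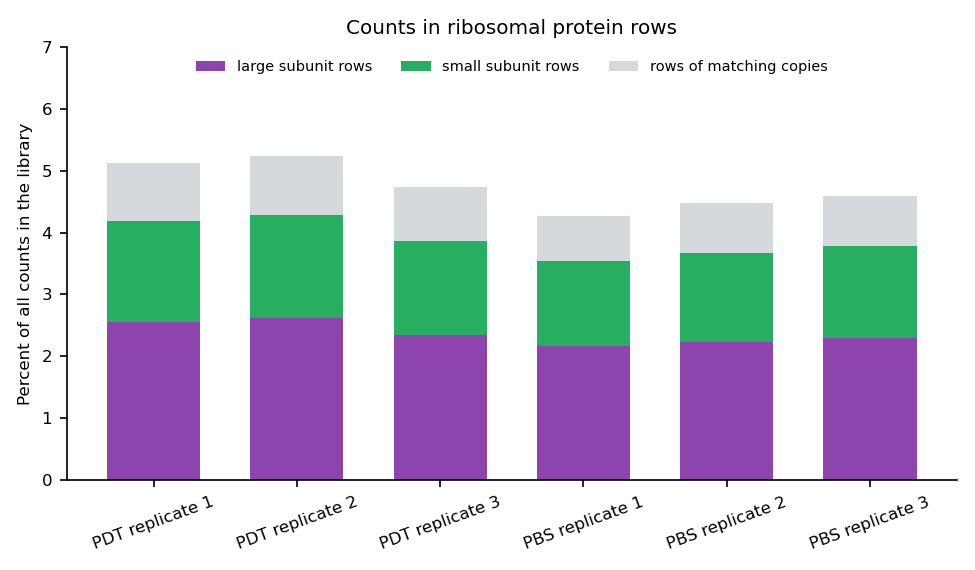
Percent of all counts (y axis) in rows of large-subunit genes (purple), small-subunit genes (green) and copies (grey) in each of 3 PDT and 3 PBS libraries. The member rows reach 3.85% to 4.28% in PDT and 3.53% to 3.77% in PBS, without overlap.

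Genes around the ribosome were read from 10 lists chosen with earlier results known. Their counts stand against 18.7% of all tested genes higher and 17.5% lower, or 17.8% and 15.7% with offsets. Ribosome biogenesis factors had 44 of 92 members higher and 3 lower, with a median log2 fold change of 0.15, and with offsets 51 higher and 2 lower with a median of 0.17, where the ribosomal proteins had 13 and 9 with a median of 0.014. Nhp2, a protein of the H/ACA particles that guide pseudouridylation of rRNA, had 54.6, 52.0 and 46.5 CPM in the PDT libraries, against 32.3, 33.7 and 36.7 CPM in the PBS libraries (0.58 ± 0.070 (SE), adjusted p = 0.000209). Rrs1, which in yeast helps to place the 5S particle, had 51.0, 47.8 and 48.3 CPM in PDT cells and 34.1, 33.0 and 32.9 CPM in PBS cells (0.56 ± 0.046 (SE), adjusted p = 2.02e-05). The assembly factors Rrp12 and Noc2l rose by 0.46 and 0.33, with adjusted p of 9.63e-05 and 0.00023. These genes kept PDT replicate 3 apart from every PBS library.

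RNA polymerase I and its factors, which make the rRNA precursor, had 7 of 20 higher and 1 lower (median 0.097). Several of the 7 are subunits shared with other RNA polymerases, so the count is not of polymerase I alone. Polr2e, Polr2f and Polr2h, subunits shared by the nuclear RNA polymerases, rose by 0.47, 0.43 and 0.38 with adjusted p of 3.53e-05, 0.000798 and 0.00191. Polr1b, the second-largest polymerase I subunit, rose by 0.27 ± 0.059 (SE), adjusted p = 0.00551. Chaperones and importers of ribosomal proteins had 6 of 16 higher and 1 lower (median 0.078). Grwd1, whose yeast counterpart is a chaperone of Rpl3, rose by 0.47 ± 0.071 (SE), adjusted p = 0.000793, and Pdcd2, a chaperone of Rps2 in human cells, by 0.65 ± 0.10 (SE), adjusted p = 0.001. Tsr2, a chaperone of Rps26 in yeast, rose by 0.20 ± 0.048 (SE), adjusted p = 0.00842. The importer Ipo7 fell (-0.27 ± 0.048 (SE), adjusted p = 0.00212), a call lost with offsets (-0.023 with adjusted p = 0.688).

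Translation initiation factors moved both ways, with 10 of 33 higher and 5 lower (median 0.053). Eif3d, a cap-binding subunit of the eIF3 complex, rose by 0.31 ± 0.041 (SE), adjusted p = 0.000351, and Eif3g of the same complex by 0.25 ± 0.044 (SE), adjusted p = 0.00179, a call lost with offsets (0.085 with adjusted p = 0.095). Eif3e, also of eIF3, had 479, 495 and 481 CPM in the PDT libraries, against 572, 599 and 615 CPM in the PBS libraries and fell (-0.30 ± 0.038 (SE), adjusted p = 0.000293). Eif2s2, the eIF2β subunit, fell by 0.22 (adjusted p = 0.00215), a call lost with offsets (-0.10 with adjusted p = 0.0661). Elongation and termination factors had 6 of 13 higher and 1 lower (median 0.11). Eef2, which translocates the ribosome, had 3954, 3965 and 3644 CPM in PDT cells and 3241, 3344 and 3289 CPM in PBS cells (0.23 ± 0.041 (SE), adjusted p = 0.00199). Eif5a and both enzymes that make its hypusine, Dhps and Dohh, rose by 0.22, 0.28 and 0.40 with adjusted p of 0.00235, 0.00371 and 0.00112. With offsets Dohh kept its call (0.26 with adjusted p = 0.00236), while Eif5a and Dhps did not pass the test (0.114 and 0.0863 as adjusted p).

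Other mRNAs known to carry a TOP motif had 7 of 22 higher and 2 lower, with a median of 0.066, and -0.0023 with offsets. Several of them are also on the translation factor lists. The 2 that fell were Eif3e and Vim (-0.27 ± 0.036 (SE), adjusted p = 0.000329), the intermediate filament gene of fibroblasts. Ribosomal genes outside the symbol rule had 2 of 5 higher, among them Rack1, a scaffold protein on the small subunit (0.14 ± 0.043 (SE), adjusted p = 0.0265), while Fau had 0.040 ± 0.049 (SE), adjusted p = 0.572. With offsets Rack1 did not pass the test, with adjusted p of 0.644, and Fau was lower in PDT (-0.15 with adjusted p = 0.00562). The list then had 0 higher and 1 lower. The adjusted p of Rack1 reached 0.136 with a library left out.

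Genes of mTORC1 and of TOP mRNA control had 12 of 34 higher and 7 lower (median 0.055). Ddit4, an inhibitor of mTORC1, had 54.2, 54.0 and 53.2 CPM in the PDT libraries, against 83.8, 84.0 and 82.7 CPM in the PBS libraries. The groups were far apart, and it fell (-0.64 ± 0.035 (SE), adjusted p = 1.47e-06). Sesn3, a sestrin that restrains mTORC1, had 114, 116 and 112 CPM in PDT cells and 152, 163 and 154 CPM in PBS cells and fell (-0.46 ± 0.040 (SE), adjusted p = 2.74e-05). Castor2, of the family of arginine sensors that restrain mTORC1, rose by 0.60 ± 0.045 (SE), adjusted p = 9.51e-06. Myc, a transcription factor that activates many genes of ribosome synthesis, had 47.4, 46.2 and 48.0 CPM in the PDT libraries, against 33.0, 30.2 and 33.4 CPM in the PBS libraries. It rose by 0.55 ± 0.052 (SE), adjusted p = 4.13e-05, with PDT replicate 3 the highest library. These are mRNA levels, and the activity of mTORC1 was not measured.

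snoRNA host genes had 5 of 17 higher and 4 lower (median -0.041). Snhg3 and Snhg8 rose by 0.36 and 0.24, and Taf1d and Snhg1 had log2 fold changes of -0.36 and -0.21, with adjusted p between 0.00708 and 0.0123. With offsets the call of Snhg1 was lost (-0.036 with adjusted p = 0.617), and those of Snhg3 and Snhg8 were lost with some libraries left out, with adjusted p of up to 0.059 and 0.0592. Genes of ribosome quality control and of signalling from ribosomal proteins to p53 had 3 of 22 higher and 6 lower (median -0.0019), a share higher that is below that of all genes. Nemf and Ltn1, which clear stalled chains from the large subunit, and Ascc3, which splits collided ribosomes, fell by 0.57, 0.21 and 0.46 with adjusted p of 0.00159, 0.00261 and 0.000228. The call of Ltn1 ended with offsets, where its value turned (0.033 with adjusted p = 0.552). Usp10, which removes ubiquitin from small-subunit proteins, rose by 0.27 ± 0.042 (SE), adjusted p = 0.000846.

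**Figure D5:**
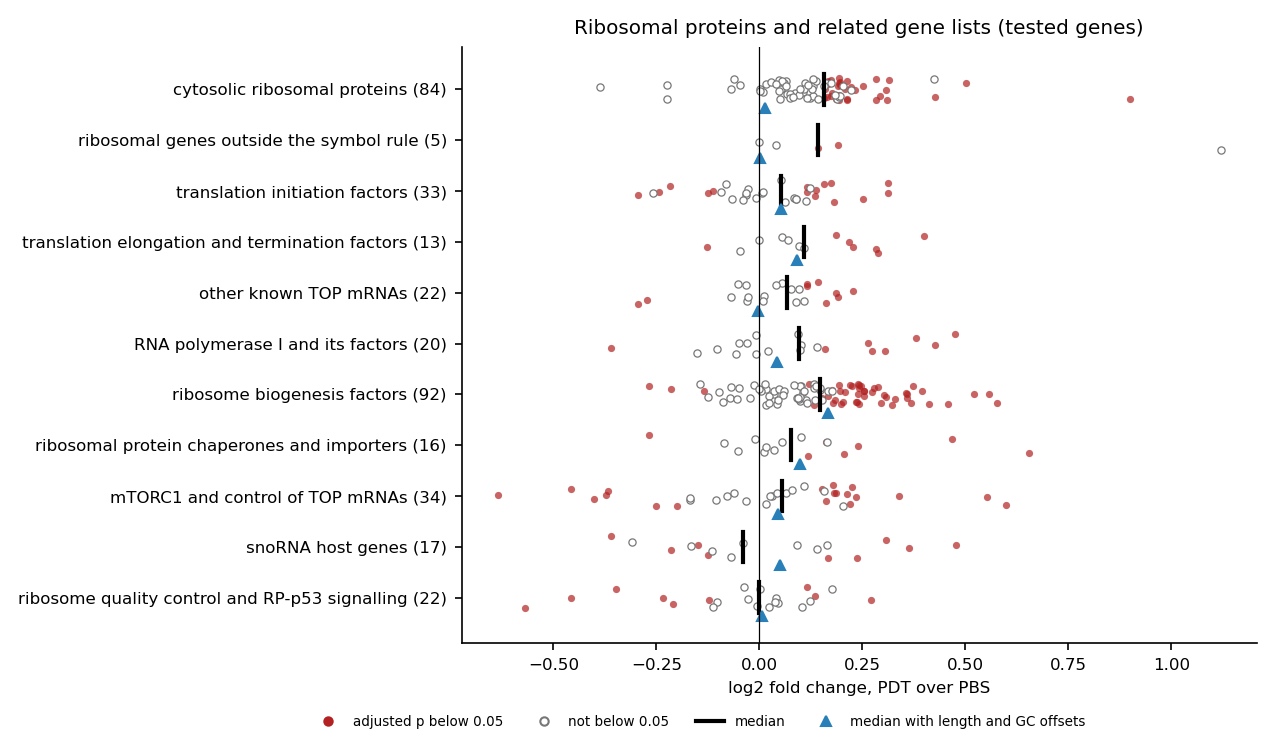
Log2 fold change (PDT over PBS, x axis) of the tested ribosomal protein genes and of 10 related lists, with the number of tested genes in brackets, red points past an adjusted p of 0.05, black bars at medians and blue triangles at medians with length and GC offsets. The ribosomal proteins have their triangle near 0 and the biogenesis factors keep theirs at 0.17.

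The proteins of the mitochondrial ribosome, a separate machine that translates mitochondrial mRNAs, were set beside the cytosolic ones. Of 78 mitochondrial members 47 were higher and 0 lower in edgeR (median 0.21), and with offsets 34 were higher and 2 lower (median 0.13). That is 60.3% of them higher, against 18.7% of all genes, and with offsets 43.6%, against 17.8%. In PDT replicate 3 their median was 0.14 above the PBS mean, against 0.043 for the cytosolic members. The difference between both sets was not tested.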

How the data were processed

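RNA sequencing was done on 3 PDT and 3 PBS samples, grouped by the treatment in the labels, which state 3 biological replicates per group without saying whether cultures or days were separate, so p-values cover only the spread between these 6 samples, which may be technical. Per the labels' protocols, Trizol RNA was depleted of rRNA, made into directional libraries and sequenced as pairs. The deposited table holds whole-number counts per gene symbol as made by the authors, not normalised. The tools named in the submitters' processing notes were STAR 2.7.11b and cutadapt 4.6, with the build GRCm39. Tool settings, annotation, counter, strand use, how reads matching several genes were handled and when RNA was extracted were not given in the sources used here. Overlapping genes, antisense partners and near-identical copies are therefore uncertain.

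PDT was compared with PBS in edgeR 4.0.16 (R 4.3.3): filterByExpr, TMM scaling, a quasi-likelihood test on group alone over 17635 genes, and Benjamini-Hochberg adjustment with a threshold of 0.05. The SE is the log2 fold change over the root of its F statistic. The procedure was tested on simulated data. The common biological coefficient of variation was 10.0%. Totals were 88669946, 99527847 and 97954533 counts in PDT and 86558216, 83195529 and 83259317 in PBS, and limits for 0 counts cover counting error only.

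Members and lists were chosen with earlier results of these data known. Named members were the 8 highest and 8 lowest log2 fold changes, the 5 most abundant, paralogues, stalk proteins, Rpsa and those tied to p53 or stress, and of each list up to 4 called genes with the lowest adjusted p. Rps2, Rps3, Rps10 and Rpl38, and members named only in a count, were picked with their values in view. A few genes that these rules would name are counted but not reported here.

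The alternatives were RLE scaling, library size only, TMM without member rows, cyclic loess and limma-voom (limma 3.58.1), DESeq2 1.42.0, no filter, a stricter filter (a mean of 1 CPM or more, and 10 or more counts in 3 libraries), a replicate block, length and GC offsets (mgcv 1.9.3, GENCODE M21 transcripts, 92.7% of tested genes and each tested member), pseudogene rows added, and leaving out each library. Adding all copies, found by BLAST 2.17.0 or named by a -ps symbol, was chosen after seeing the data. Replicates differed by more than counting noise (chi-square over degrees of freedom 11.0 or above), so each counted as 1 sample.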

Additional observations from a re-analysis of the deposited data

How the results depend on the processing

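The median of 0.16 stayed above 0, and more members were higher than lower, under each alternative. With length and GC offsets, though, the median was 0.014 and 15.5% of members were higher, against 17.8% of all genes. No call was lost with library size only, TMM without member rows, cyclic loess, limma-voom or DESeq2 (39 higher). None was lost either with the stricter filter (32, since Rpl32l was not tested there) or pseudogene rows added (37). Without PDT replicate 3, the lowest PDT library in 78 of 84 members, 0 of the 33 calls were lost. Without PDT replicates 1 and 2, 20 and 22 were lost, and without PBS replicates 1, 2 and 3, 21, 12 and 1 were lost. RLE scaling gave 32, no filter 24, and all copy rows added 38. Library size only gave 56 higher (36 large, 20 small), and cyclic loess 50 (35 large). With length and GC offsets 13 were higher and 9 lower (10 and 6 large, 3 and 3 small), with medians of 0.014 for all, 0.032 for large and -0.0021 for small members. The offsets are built to remove trends with length and GC, and the cause of the other shifts was not tested. With a library left out, 11 to 57 members were higher (8 to 38 large, 3 to 19 small) and 0 to 1 lower (0 to 1 large, 0 to 1 small). The share of all genes called higher then fell too, except without PDT replicate 3, and the part of lost power was not tested. Without PDT replicate 2 12.9% of members were higher, against 13.0% of all genes. Without PBS replicate 1 14.1% of members were higher, against 14.3% of all genes.

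Same-numbered PDT and PBS libraries did not deviate together across genes (correlations of -0.012, 0.014 and 0.0047), so the numbers were not taken to pair samples. With the replicate block 31 members were higher and 0 lower, 4 calls were lost, and Rps16 was at -0.0027. Members near 0 changed sign. Rps16 was at -0.0062 with RLE, -0.0062 with DESeq2, -0.0030 with limma-voom and -0.018 with the stricter filter. Rpl27a was at -0.0060 with RLE and DESeq2, -0.017 with the stricter filter and -0.0013 with copies. Rpl3 was at -0.00046 with RLE and DESeq2 and -0.012 with the stricter filter, where Rplp0 was at -0.0031. Rpl10 was at 0.00063 with library size only and 0.00096 with cyclic loess. Rpl7a turned to 0.075 with pseudogene rows and 0.29 with copies, and Rps27 to 0.046 with copies.

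With length and GC offsets, the large-subunit members that turned were Rpl3 (-0.13), Rplp0 (-0.13), Rpl27a (-0.12), Rplp1 (-0.065), Rpl11 (-0.055), Rpl4 (-0.034) and Rplp2 (-0.0043). The small-subunit members were Rps16 (-0.14), Rps19 (-0.099), Rps3a2 (-0.085), Rps7 (-0.077), Rpsa (-0.044), Rps3a3 (-0.034), Rps2 (-0.010), Rps3a1 (-0.0043) and Rps4x (-0.00060). With a library left out, log2 fold changes ran from -0.13 to 0.050 for Rpl10, -0.17 to 0.0028 for Rpl21, -0.056 to 0.060 for Rpl27a, -0.017 to 0.035 for Rpl3, -0.034 to 0.080 for Rplp0, -0.067 to 0.090 for Rps16, -0.00040 to 0.087 for Rps19 and -0.017 to 0.091 for Rps3a2. At these depths counting error is small beside the spread between libraries, apart from Rpl32l and Rpl29, which had few counts.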
